A study of Mus musculus with 6 samples.

Results

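Endothelial cells line blood vessels, and a set of 9 genes that mark them was followed through RNA sequencing of floated adipocytes: *Pecam1*, *Cdh5*, *Tie1*, *Tek*, *Emcn*, *Egfl7*, *Cldn5*, *Esam* and *Erg*. The members were taken by gene symbol, and all 9 have a row among the 37384 symbols of the count table. The adipocytes came from inguinal subcutaneous white adipose tissue (scWAT) of male mice at postnatal day 7, with 4 mice pooled per library and 3 libraries per genotype. All mice carried homozygous floxed *Lats1* and *Lats2* alleles (Lats1f/fLats2f/f). L1L2-FF mice carried these alleles alone, whereas L1L2-AKO mice (Lats1f/fLats2f/fAdipoqCre) also had Cre recombinase driven by the *Adipoq* promoter, which is active in adipocytes and not in endothelium. The fraction was obtained by a short collagenase digestion and flotation without any sort, so cells that clung to or floated with adipocytes could also give RNA. In such bulk RNA, fewer endothelial cells and less of a transcript per endothelial cell cannot be told apart.

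Adipose tissue is densely vascularized, and most adipocytes touch at least a capillary. Endothelial cells hold together through adherens junctions built on VE-cadherin and tight junctions built on claudin-5, receive angiopoietin signals through the TIE receptor tyrosine kinases, and keep their identity through ETS family transcription factors such as ERG. LATS kinases of the Hippo pathway restrain the coactivators YAP and TAZ, which work with TEAD factors on DNA.

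Total counts were 30548473 to 32107917 per library. The targeted genes were read first: *Lats1* fell from 82.9 ± 9.90 to 40.2 ± 1.16 CPM (counts scaled to library size with TMM factors; SD, n = 3 libraries each), whereas *Lats2* was higher, 76.4 ± 8.68 against 119 ± 20.6 CPM (SD, n = 3 each), which goes against the label, with adjusted p = 0.00131 and 0.0278 from edgeR. By RT-qPCR, the paper reports that both transcripts were reduced in scWAT adipocytes of L1L2-AKO mice at this age. Counts per gene do not separate floxed from other exons. Every direction below is therefore that of the libraries labelled L1L2-AKO. Adipocyte markers were present throughout (*Adipoq* at 1526 ± 253 and 635 ± 124 CPM per kb of exon, *Fabp4* at 1819 ± 268 and 1472 ± 77.0; SD, n = 3 each), and reads from the mitochondrial genome made up 10.6% to 11.5% of counts in L1L2-FF and 7.85% to 9.71% in the libraries labelled L1L2-AKO.

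The starts of the member genes were read from RefSeq (GRCm38.p6, the assembly of mm10), where 6 of the 9 symbols matched, with 10 windows of 250 bases upstream of an annotated start. The letters GGAAG or their reverse complement CTTCC, a form of the site that ETS factors bind, are in capitals below. Other forms of the ETS core, GGAA or GGAT, were not marked or counted. As a description, 4 windows that lie before the annotated gene are shown. Those of *Egfl7*, which start inside the annotated gene, and of *Tie1*, most of which covers annotated exon, are not shown, nor are those of *Erg* inside the gene. The *Emcn* window was shortened to the 239 bases before the gene's first annotated exon.
Cldn5 (chr16:18776597-18776846, plus strand): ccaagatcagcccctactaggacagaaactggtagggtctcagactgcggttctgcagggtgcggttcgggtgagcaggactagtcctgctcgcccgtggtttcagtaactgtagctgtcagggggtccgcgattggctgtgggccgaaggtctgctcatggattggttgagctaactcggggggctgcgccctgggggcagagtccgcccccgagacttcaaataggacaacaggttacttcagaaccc
Tek (chr4:94739039-94739288, plus strand): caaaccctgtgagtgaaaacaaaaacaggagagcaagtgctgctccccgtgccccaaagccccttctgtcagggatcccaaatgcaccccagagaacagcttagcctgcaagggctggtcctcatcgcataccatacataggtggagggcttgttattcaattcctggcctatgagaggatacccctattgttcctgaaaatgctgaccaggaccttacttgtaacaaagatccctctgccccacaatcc
Emcn (chr3:137340828-137341066, plus strand): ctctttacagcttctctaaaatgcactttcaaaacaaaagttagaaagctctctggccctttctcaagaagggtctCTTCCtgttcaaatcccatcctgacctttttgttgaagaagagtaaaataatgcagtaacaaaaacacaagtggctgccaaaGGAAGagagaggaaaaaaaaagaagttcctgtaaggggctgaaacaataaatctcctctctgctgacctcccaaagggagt
Erg (chr16:95586594-95586843, minus strand): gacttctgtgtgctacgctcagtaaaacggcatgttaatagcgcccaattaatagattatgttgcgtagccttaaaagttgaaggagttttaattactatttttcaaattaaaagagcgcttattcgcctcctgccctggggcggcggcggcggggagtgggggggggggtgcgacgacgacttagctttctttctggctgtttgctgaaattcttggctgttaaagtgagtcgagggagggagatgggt
Of these 4, the *Emcn* window holds the word GGAAG or CTTCC 2 times and the others do not hold this word. Among the windows not shown, that of *Tie1* holds it 6 times and the first of *Egfl7* 4 times. Over all 10 member windows, 6 held it, beside 64.1% of the 32851 windows of the same length in the table. The TEAD letters GGAATG or CATTCC were in 1 of the 10 windows (another start of *Erg*) and in 12.6% of all. They contain neither GGAAG nor CTTCC, but they do contain the shorter ETS core GGAA or its reverse complement. The GATA factor letters AGATAA or TTATCT were in 1 of 10 and in 9.99% of all, and the letters of the core promoter element TATAAA or TTTATA in 1 of 10 and in 12.4%. The forkhead letters TGTTTAC or GTAAACA were in 0 of 10 and in 3.17%. These matches describe letters and not binding.

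All 9 members were well counted, from 627 counts for *Erg* in L1L2-AKO replicate 3 to 27346 for *Cdh5* in L1L2-AKO replicate 1, and none was removed by the filter on low counts. Divided by exon length, the order of mean levels in L1L2-FF was *Cdh5* (179 ± 27.5 CPM per kb), *Cldn5* (163 ± 31.6), *Pecam1* (83.3 ± 13.6), *Esam* (46.7 ± 6.37), *Tie1* (32.7 ± 6.71), *Egfl7* (21.6 ± 1.24), *Tek* (17.7 ± 4.89), *Erg* (15.6 ± 1.98) and *Emcn* (9.28 ± 2.07; SD, n = 3 each). Among neighbours in this order, the L1L2-FF libraries overlapped between *Cdh5* and *Cldn5*, *Esam* and *Tie1*, *Egfl7* and *Tek*, and *Tek* and *Erg*, and not between the others. In the libraries labelled L1L2-AKO the order was the same by mean, from 146 ± 53.7 for *Cdh5* and 109 ± 36.1 for *Cldn5* to 11.7 ± 3.02 for *Tek*, 9.73 ± 3.09 for *Erg* and 6.58 ± 1.73 CPM per kb for *Emcn* (SD, n = 3 each).

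**Figure D1:**
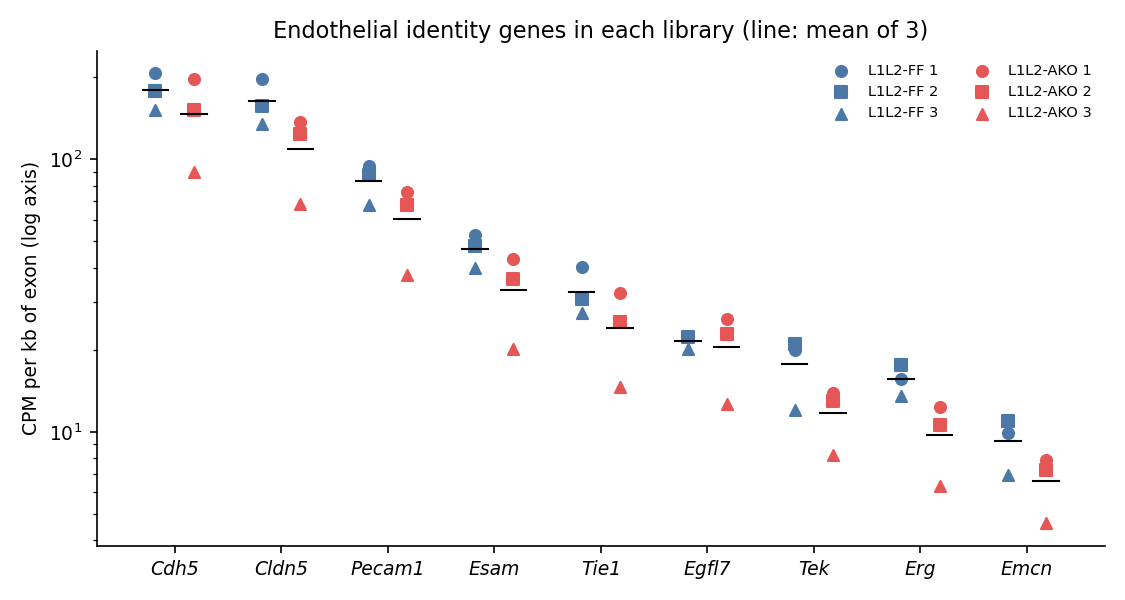
Level of each of the 9 members in CPM per kb of exon (log axis) in the 3 L1L2-FF libraries (blue) and the 3 libraries labelled L1L2-AKO (red), with symbols for replicate numbers and lines for the mean of 3. *Cdh5* and *Cldn5* lead and *Emcn* is lowest, and the red triangle of L1L2-AKO replicate 3 is the lowest of the 6 points for every member.

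In the libraries labelled L1L2-AKO, all 9 members had a lower fitted level, by log2 fold changes of -0.68 to -0.07 with a median of -0.49, but 0 of 9 were past the threshold (Benjamini-Hochberg adjusted p of 0.05 over 15674 genes, quasi-likelihood test of edgeR). Over all genes tested the median log2 fold change was -0.02, 52.1% had a fitted value below 0, and 16.5% passed the threshold (9.28% higher and 7.18% lower). At an unadjusted p under 0.05 from edgeR, 2 of the 9 members (*Tek* and *Erg*) would count, beside 4828 of the 15674 genes tested. DESeq2's Wald test passed *Erg* alone, with an adjusted p of 0.0453, where 8.40% of the genes it tested were lower. The spread among the libraries labelled L1L2-AKO was wide for these genes, and the fitted difference depended on which of them were included. Without L1L2-AKO replicate 3 the median log2 fold change of the members was -0.23, and without L1L2-AKO replicate 1 it was -0.71.

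The adhesion molecules of endothelial junctions come first. *Pecam1* (chromosome 11, 106654217 to 106750628, minus strand, ENSMUSG00000020717.19 in GENCODE M21) encodes CD31, a homophilic adhesion molecule at cell borders that platelets and leukocytes also carry. Its TMM-normalized level was 586, 547 and 424 CPM in L1L2-FF replicates 1 to 3, and 471, 423 and 234 CPM in replicates 1 to 3 labelled L1L2-AKO. The genotypes overlapped, since L1L2-AKO replicate 1 lay above L1L2-FF replicate 3. The means were 519 ± 84.9 and 376 ± 126 CPM (SD, n = 3 each). *Pecam1* had a log2 fold change of -0.47 (95% interval -1.07 to 0.14, adjusted p = 0.279 from edgeR).

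*Cdh5* (chromosome 8, 104101625 to 104144511, plus strand, ENSMUSG00000031871.9) encodes VE-cadherin, the cadherin of endothelial adherens junctions. It was read at 868, 747 and 637 CPM in L1L2-FF and at 825, 639 and 376 CPM in the libraries labelled L1L2-AKO. Replicates 1 and 2 of the latter fell within the L1L2-FF range, and replicate 3 lay far below it. The log2 fold change was -0.29 (95% interval -0.93 to 0.34, adjusted p = 0.532 from edgeR), from 751 ± 115 to 613 ± 226 CPM (SD, n = 3 each).

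*Cldn5* (chromosome 16, 18776847 to 18778262, plus strand, a gene of 1 exon, ENSMUSG00000041378.2) encodes claudin-5, the tight junction protein that seals endothelium. Its level was 279, 222 and 191 CPM in L1L2-FF and 193, 174 and 96.8 CPM in the libraries labelled L1L2-AKO. The groups overlapped only through L1L2-AKO replicate 1, which lay just above L1L2-FF replicate 3. From 231 ± 44.7 to 155 ± 51.2 CPM (SD, n = 3 each), the log2 fold change was -0.58 (95% interval -1.18 to 0.02, adjusted p = 0.178 from edgeR).

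*Esam* (chromosome 9, 37528078 to 37538319, plus strand, ENSMUSG00000001946.14) encodes an immunoglobulin-type adhesion molecule of endothelial tight junctions that is also found on platelets. It was read at 151, 137 and 114 CPM in L1L2-FF and at 123, 104 and 57.6 CPM in the libraries labelled L1L2-AKO, again with replicate 1 inside the L1L2-FF range and replicate 3 far below it. *Esam* had a log2 fold change of -0.49 (95% interval -1.09 to 0.10, adjusted p = 0.242 from edgeR).

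The TIE receptors bind or modulate the response to angiopoietins. *Tek* (chromosome 4, 94739289 to 94874976, plus strand, ENSMUSG00000006386.15) encodes TIE2, the angiopoietin receptor. Its level was 94.1, 98.8 and 56.8 CPM in L1L2-FF and 65.3, 61.3 and 38.9 CPM in the libraries labelled L1L2-AKO. L1L2-FF replicate 3 was lower than 2 of the 3 libraries labelled L1L2-AKO. The log2 fold change was -0.59 (95% interval -1.18 to -0.01, adjusted p = 0.159 from edgeR), from 83.2 ± 23.0 to 55.1 ± 14.3 CPM (SD, n = 3 each).

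*Tie1* (chromosome 4, 118471191 to 118490061, minus strand, ENSMUSG00000033191.14) encodes the partner receptor of TIE2. It was read at 197, 151 and 134 CPM in L1L2-FF and at 159, 124 and 71.5 CPM in the libraries labelled L1L2-AKO. Replicate 1 of the latter exceeded 2 of the 3 L1L2-FF libraries. The fitted log2 fold change was -0.44 (95% interval -1.08 to 0.20, adjusted p = 0.338 from edgeR).

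*Emcn* (chromosome 3, 137341067 to 137432185, plus strand, ENSMUSG00000054690.17) encodes endomucin, a sialomucin of capillary and venous endothelium. Its level was 53.5, 59.3 and 37.7 CPM in L1L2-FF and 42.6, 39.2 and 24.998 CPM in the libraries labelled L1L2-AKO, so that 2 of the latter lay above L1L2-FF replicate 3. *Emcn* had a log2 fold change of -0.49 (95% interval -1.03 to 0.04, adjusted p = 0.196 from edgeR).

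*Egfl7* (chromosome 2, 26580014 to 26593120, plus strand, ENSMUSG00000026921.18) encodes a secreted protein of the endothelial matrix and hosts the miRNA gene *Mir126a*. It stood apart from the other members. Its level was 80.0, 79.5 and 72.1 CPM in L1L2-FF and 92.9, 81.8 and 45.4 CPM in the libraries labelled L1L2-AKO. Replicates 1 and 2 of the latter were the highest of the 6 libraries and replicate 3 the lowest. The same held for *Podxl* and *S1pr1*, which are among the other endothelial genes read below. The log2 fold change was -0.07 (95% interval -0.62 to 0.47, adjusted p = 0.874 from edgeR), and it turned to 0.19 without L1L2-AKO replicate 3. *Egfl7* shares 4.94% of its 50-base stretches with transcripts of other genes, mainly the overlapping *Gm20532*. Of its exon bases, 7.37% overlap with *Gm20532* and 2.04% with *Mir126a* on the same strand, and 1.79% with *Agpat2* on the opposite strand. For the other members the shared part of the 50-base stretches was at most 0.998%.

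*Erg* (chromosome 16, 95359169 to 95586593, minus strand, ENSMUSG00000040732.20) encodes the ETS factor named above, which is also made by blood stem cells and megakaryocytes. Its level was 54.04, 60.8 and 47.0 CPM in L1L2-FF and 42.7, 36.6 and 21.9 CPM in the libraries labelled L1L2-AKO. It was the 1 member of 9 whose genotypes did not overlap. Over all tested genes, 36.4% did not overlap, 18.4% being lower and 18% higher. The means were 53.9 ± 6.87 and 33.7 ± 10.7 CPM (SD, n = 3 each). The log2 fold change was -0.68 (standard error 0.23, 95% interval -1.21 to -0.14, adjusted p = 0.0861 from edgeR).

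The intervals show what these 6 libraries could resolve. They included 0 for 7 members, and for 7 members they reached a log2 fold change of -1, a halving, which *Cdh5* and *Egfl7* did not reach. No interval reached above 0.47. The standard errors of the members, 0.23 to 0.28 with a median of 0.26, exceeded the median of 0.19 over all genes tested.

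**Figure D2:**
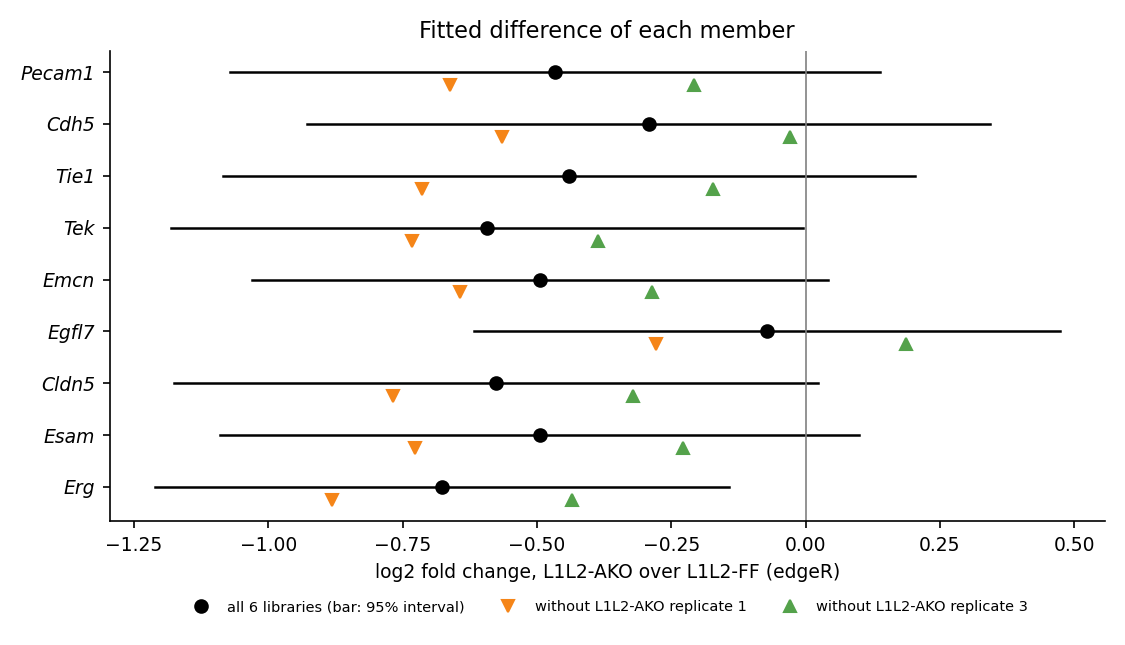
Fitted log2 fold change of each member between libraries labelled L1L2-AKO and L1L2-FF (black points, bars are 95% intervals from edgeR), with the fitted values without L1L2-AKO replicate 1 (orange) and without L1L2-AKO replicate 3 (green). Values are lower without replicate 1, down to -0.88 for *Erg*, and closer to 0 without replicate 3 for 8 of the 9 members, whereas *Egfl7* goes from -0.07 to 0.19.

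The members moved together from library to library, and L1L2-AKO replicate 3 was the lowest of the 6 libraries for 9 of 9 members, where this held for 17.4% of all tested genes. Relative to each member's L1L2-FF mean, the median member stood at 113%, 103% and 83.2% in L1L2-FF replicates 1 to 3, and at 90.8%, 77.8% and 45.0% in replicates 1 to 3 labelled L1L2-AKO. In L1L2-AKO replicate 3 the members lay between 40.6% (*Erg*) and 58.8% (*Egfl7*). L1L2-AKO replicate 1 was higher than replicate 3 by 1.68-fold for *Tek* to 2.23-fold for *Tie1*. The coefficient of variation among the 3 libraries labelled L1L2-AKO was 25.8% to 37.3% over the members, and its median over the 10068 genes whose average log2 CPM was 3 or more was 9.45%. Among the L1L2-FF libraries it was 5.73% (*Egfl7*) to 27.7% (*Tek*), beside a median of 12.6% over those genes. The total counts of all libraries lay within the narrow range given above.

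**Figure D3:**
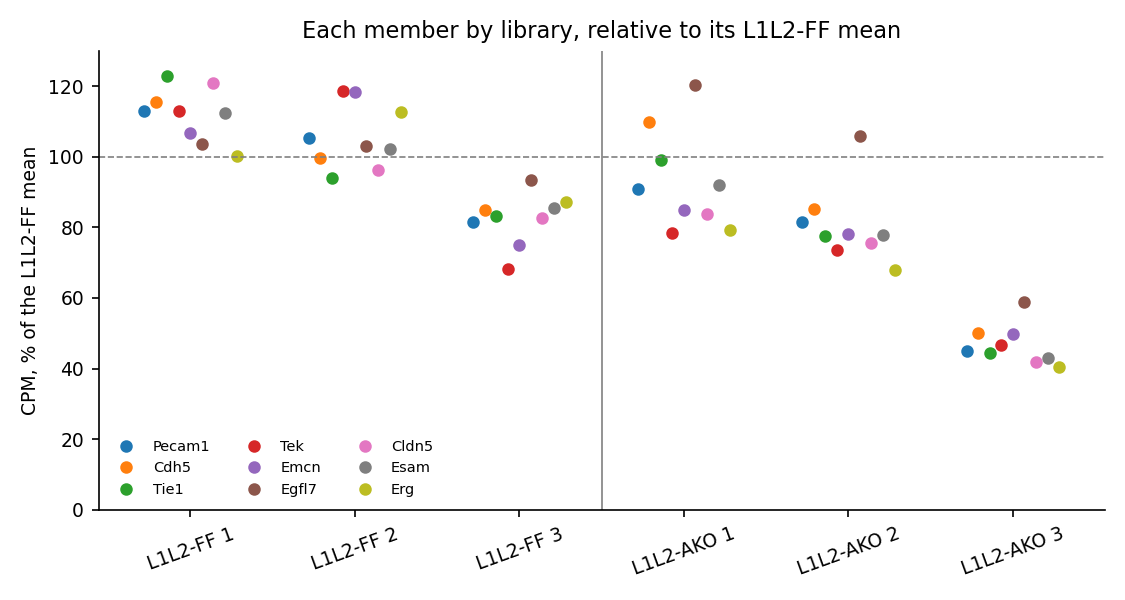
Level of each member in each library as a percentage of its L1L2-FF mean, 1 colour per member, with the dashed line at 100%. In L1L2-AKO replicate 3 all 9 members lie between 40.6% and 58.8%, whereas in L1L2-AKO replicate 1 they range from 78.5% (*Tek*) to 120% (*Egfl7*).

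Without L1L2-AKO replicate 3, 0 of 9 members passed edgeR's adjusted p-value and 1 had an unadjusted p under 0.05, the median log2 fold change was -0.23, and that of *Cdh5* was -0.03 and that of *Erg* -0.44. In that fit 8.54% of all genes passed. Without L1L2-AKO replicate 1, the median was -0.71, 7 of 9 members had an unadjusted p under 0.05, and *Erg* alone passed with a log2 fold change of -0.88 (adjusted p = 0.0490 from edgeR), where 12.9% of all genes passed. Without L1L2-AKO replicate 2, or L1L2-FF replicate 1, 2 or 3, 0 of 9 members passed, with 1, 1, 0 and 4 at an unadjusted p under 0.05, where 7.97%, 8.05%, 17.8% and 14.2% of all genes passed. The percentages of all genes here are at the adjusted threshold and are no reference for the unadjusted counts. The share of all genes at an unadjusted p under 0.05 is not given for these fits. In the edgeR fit of all 6 libraries, 4828 of 15674 genes reached it. DESeq2 was not run on these subsets.

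Other endothelial genes were read beside the members. Of 25 other genes of endothelial surface and signalling, all were tested, 2 were higher, 2 lower and 21 did not pass, with a median log2 fold change of -0.26, and 23 had their lowest level in L1L2-AKO replicate 3. Without that library 1 of the 25 was higher and 0 were lower, and the median was 0.01. *Vwf*, which encodes von Willebrand factor of larger vessels, fell from 38.8 ± 12.9 to 18.7 ± 5.28 CPM (SD, n = 3 each; log2 fold change -1.05, adjusted p = 0.0380 from edgeR). *Tspan18*, a tetraspanin gene, fell by 0.46 on the log2 scale (adjusted p = 0.0417 from edgeR). *Palmd*, which encodes palmdelphin, rose from 224 ± 48.5 to 402 ± 58.1 CPM (SD, n = 3 each), and *Stab1*, a scavenger receptor of sinusoidal endothelium and of macrophages, rose from 83.5 ± 19.99 to 148 ± 19.8 CPM (SD, n = 3 each), with adjusted p = 0.0193 and 0.0229 from edgeR. Each of these 4 calls was lost in at least 3 of the 6 fits without a library, with adjusted p-values of edgeR up to 0.151. The VEGF receptor gene *Kdr* and the TGFβ coreceptor gene *Eng* had log2 fold changes of 0.03 and 0.02, whereas *Cd93*, the most abundant of the list per kb, had -0.30, none of them past the threshold. *Cd93* was at 69.3 ± 4.95 CPM per kb in L1L2-FF and *Eng* at 49.8 ± 6.81 (SD, n = 3 each), between *Esam* and *Pecam1*.

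To set the members against the rest of the endothelial genes, each member's count was divided by the summed counts of those 25 genes in the same library, as a description without a test. *Erg* stood at 1.73%, 1.86% and 1.79% of that sum in L1L2-FF and at 1.15%, 1.23% and 1.05% in the libraries labelled L1L2-AKO. Replicate 3 was thus still the lowest, but less far below than on the CPM scale. There *Erg* was at 79.1%, 67.9% and 40.6% of its L1L2-FF mean in replicates 1 to 3 labelled L1L2-AKO. The low value of replicate 3 was therefore shared in part by the other endothelial genes. *Cldn5* stood at 8.92%, 6.81% and 7.27% against 5.22%, 5.86% and 4.65%. *Egfl7* stood at 2.56%, 2.43% and 2.74% against 2.51%, 2.75% and 2.18%, and overlapped. On this scale 8 of the 9 members were lower without overlap between the genotypes, all except *Egfl7*, and the same held for 7.64% of all tested genes. On the CPM scale that share was 18.4%. The division adds the variation of the endothelial sum between libraries to genes of other cells. The shares of all genes on the ratio scale are therefore no like reference for the members. A share among other endothelial genes alone is not given. The ratio depends on what is summed, since *Palmd* and *Stab1* rose: with the 4 genes past the threshold left out, a choice made after the values were seen, 6 of the 9 members were lower without overlap (*Pecam1*, *Cdh5*, *Tie1*, *Cldn5*, *Esam* and *Erg*), where this held for 4.27% of all tested genes, and *Tek* and *Emcn* overlapped. *Cdh5* was then only just separate, at 27.8% to 32.6% of the sum in L1L2-FF and 27.1% to 27.4% in the libraries labelled L1L2-AKO. *Erg* was at 2.03% to 2.26% and 1.40% to 1.58%.

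**Figure D4:**
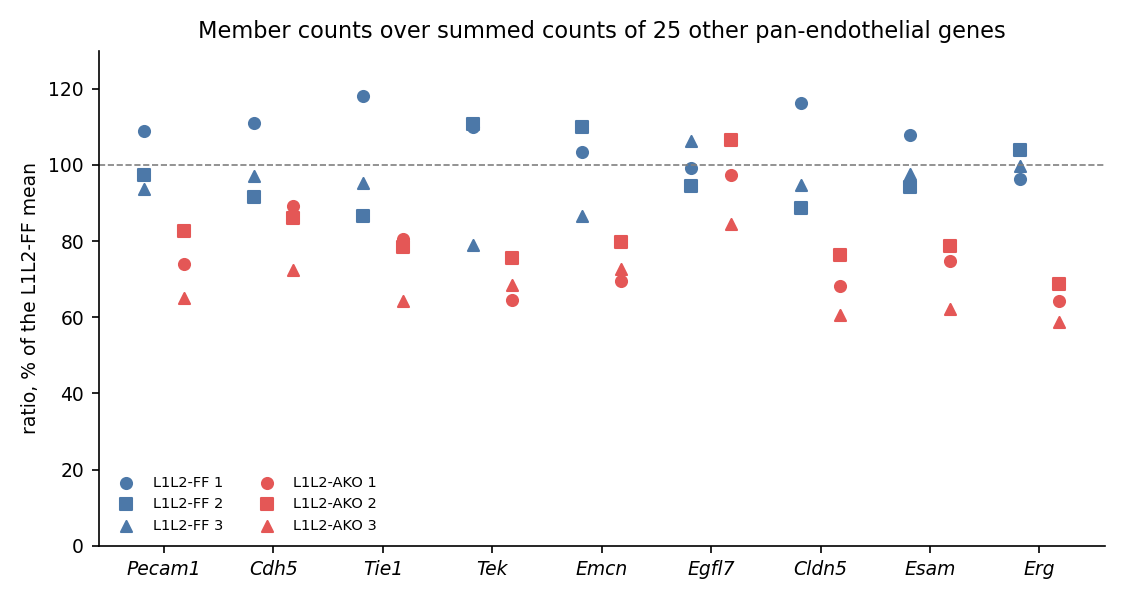
Counts of each member over the summed counts of 25 other pan-endothelial genes in the same library, as a percentage of the member's L1L2-FF mean, for L1L2-FF libraries (blue) and libraries labelled L1L2-AKO (red). The red points lie below all blue points for 8 members and mix with them for *Egfl7*.

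Genes of endothelial subtypes and partners were counted in the same fit. Of 14 endothelial transcription factors 0 passed in either direction by edgeR, 1 had an unadjusted p under 0.05, and the median log2 fold change was -0.16. The ETS factors *Fli1* and *Ets1* had -0.23 and -0.05, beside -0.68 for *Erg*, and the most abundant per kb, *Klf4* and *Sox18*, had -0.19 and -0.05. Around the TIE receptors, *Angpt1* and *Angpt2*, which encode their ligands, had log2 fold changes of -0.82 and -0.91 that did not pass (adjusted p = 0.0973 and 0.0554 from edgeR), and *Ptprb*, the phosphatase that acts on TIE2, had -0.34. *Dok2*, an adaptor that leukocytes also express, rose by 1.22 and *Svep1*, a matrix protein gene, by 2.60 on the log2 scale (adjusted p = 0.00336 and 0.00668 from edgeR). Thus 2 of 5 genes of this list were higher and 0 lower (1 lower without L1L2-AKO replicate 1), and neither is made by endothelium alone.

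Of the 11 junction and adhesion genes 10 were tested, 0 were higher and 1 was lower: *Cgnl1*, which encodes the junction protein paracingulin, fell from 90.3 ± 1.55 to 54.7 ± 7.32 CPM (SD, n = 3 each; adjusted p = 0.00628 from edgeR). Its most abundant genes per kb, *F11r* and *Jup*, had log2 fold changes of -0.25 and 0.31. Of 8 capillary genes 1 was higher and 0 lower, with a median of 0.00: *Rgcc* rose from 191 ± 19.9 to 306 ± 63.9 CPM (SD, n = 3 each; adjusted p = 0.0359 from edgeR), while *Aqp1*, the water channel gene, and *Gpihbp1*, which carries lipoprotein lipase across capillaries, had 0.14 and -0.10. Without L1L2-AKO replicate 3 the capillary list had 0 calls and a median of 0.25, and without L1L2-AKO replicate 1 it had 1 higher and 1 lower.

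Of 9 arterial genes 1 was higher and 0 lower (median 0.15), namely the Notch ligand gene *Jag1*, which many other cells express, with a log2 fold change of 0.99 (adjusted p = 0.00334 from edgeR). The gap junction gene *Gja4* had 0.32. Of 7 venous genes 2 were higher and 0 lower, with a median of -0.46: *Nr2f2* rose by 0.53 and *Lrg1* by 2.34 on the log2 scale (adjusted p = 0.0366 and 0.0180 from edgeR), neither being limited to veins, while the apelin receptor gene *Aplnr* had -0.46. Without L1L2-FF replicate 3 or L1L2-AKO replicate 2, 0 venous genes were higher and 1 was lower. Of the 7 lymphatic genes 6 were tested, *Mmrn1* rose and *Reln* fell (log2 fold changes 1.63 and -2.05, adjusted p = 0.0183 and 0.0199 from edgeR), and *Prox1*, which defines the lineage, was at 1.32 and 1.25 CPM. *Lyve1* and *Flt4*, the most abundant of that list per kb, had 0.48 and 0.16, and the list's median was 0.32. Of 7 tip cell genes *Nid2*, a basement membrane gene, rose by 2.08 and *Pgf* fell by 1.90 on the log2 scale (adjusted p = 0.00616 and 0.00850 from edgeR), *Plvap* had 0.24, and the median was -0.24. Each arterial, venous or lymphatic call except that of *Jag1* was lost in 2 or more of the 6 fits without a library, as was that of *Rgcc*, with adjusted p-values of edgeR up to 0.142.

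The genes whose pattern over the 6 libraries came closest to the members' mean were *Aplnr*, *Sox13*, *Gpr4*, *Sox7* and *Dll1*, among 10059 genes whose average log2 CPM was 3 or more. The measure was the root mean square difference of centred log2 CPM, which was 0.05, 0.05, 0.06, 0.06 and 0.07. Among the members themselves it ran from 0.02 for *Pecam1* to 0.20 for *Egfl7*. *Aplnr* was read at 238, 226 and 161 CPM in L1L2-FF and at 187, 170.4 and 96.2 CPM in the libraries labelled L1L2-AKO. The 5 genes were chosen for this likeness, so their own differences are no separate result.

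Markers of other cells each had their own pattern. The summed level of the 9 members was 1714 to 2363 CPM in L1L2-FF and 966, 1683 and 2016 CPM in the libraries labelled L1L2-AKO. Of 11 macrophage markers 10 were higher and 0 lower (median log2 fold change 1.48), and their sum was 269 to 525 CPM in L1L2-FF and 968 to 1078 CPM in the libraries labelled L1L2-AKO. With L1L2-FF replicate 1 left out 6 were higher, with L1L2-AKO replicate 2 left out 7, and in the other such fits 9 or 10. None of the 11 had its lowest level in L1L2-AKO replicate 3. Of 8 platelet markers 5 were tested and 1, *Pf4*, which macrophages also make, was higher (median 0.31), a call that was lost without L1L2-FF replicate 1 or 3 or L1L2-AKO replicate 2 or 3. Their sum was 15.9 to 23.4 and 25.8 to 37.0 CPM. *Pecam1*, *Esam* and *Erg* are also expressed by blood cells, and the part of those cells in the members' levels was not tested. Mural markers were also lowest in L1L2-AKO replicate 3, for 7 of 10. The sum of these 10 mural markers (pericytes and smooth muscle around vessels) was 1064 to 1421 and 790.3 to 1067 CPM, and 1 was higher and 3 lower (median -0.74). Leaving out either L1L2-AKO replicate 2 or L1L2-FF replicate 1 gave 1 lower mural gene, L1L2-AKO replicate 3 gave 2 and L1L2-AKO replicate 1 gave 5. The higher call, *Notch3*, was lost when L1L2-AKO replicate 2 was left out. *Rgs5*, the most abundant of them per kb, fell from 550 ± 112 to 236 ± 78.8 CPM (SD, n = 3 each; adjusted p = 0.0188 from edgeR), and passed in 4 of the 6 fits that left out a library. *Notch3* rose from 15.2 ± 3.15 to 28.4 ± 3.85 CPM per kb (SD, n = 3 each) and passed in 5 of those fits. *Pdgfrb*, next after *Rgs5* per kb, was at 30.7 ± 6.24 and 42.0 ± 3.56 CPM per kb (SD, n = 3 each) and passed in 0. Of the 10 mural markers, 7 had a fitted value below 0 and 3 above.

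**Figure D5:**
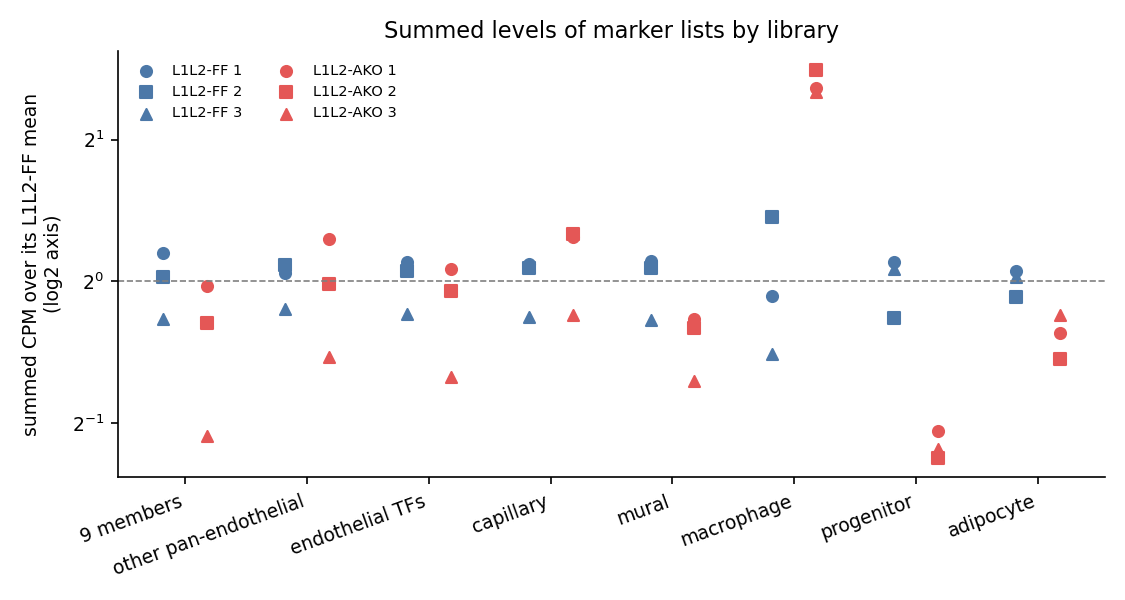
Summed CPM of the 9 members and of 7 marker lists in each library, divided by the L1L2-FF mean of that list (log2 axis), for L1L2-FF libraries (blue) and libraries labelled L1L2-AKO (red). L1L2-AKO replicate 3 is lowest for the members, the other endothelial genes, the transcription factors and the mural markers, and not for macrophage, progenitor or adipocyte markers. Nor is it lowest for the capillary endothelial genes, at 1023 CPM beside 1017 CPM in L1L2-FF replicate 3.

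Of 10 adipocyte markers 0 were higher and 4 lower (median -0.58), and of 8 progenitor markers 0 were higher and 3 lower (median -0.54). Lower adipocyte genes were 6 without L1L2-FF replicate 2 and 3 or 4 when any other library was left out. Leaving out either L1L2-AKO replicate 2 or L1L2-FF replicate 1 gave 1 lower progenitor gene, L1L2-AKO replicate 3 gave 2 and L1L2-FF replicate 3 gave 5. In L1L2-AKO replicate 3 the adipocyte sum, 15695 CPM, was above those of the other libraries with that label (14343 and 12631 CPM), and the progenitor sum, 584 CPM, was between them (637 and 559 CPM). Of 6 Schwann cell markers 4 were lower (median -1.83), and 1 without L1L2-FF replicate 2 or 3 or L1L2-AKO replicate 1 or 3. Of the 6 red cell, 6 T and B cell and 4 tested of 6 skeletal muscle markers 0 passed in either direction by edgeR, with medians of -0.19, 0.47 and -1.25, and with 0, 0 and 2 genes at an unadjusted p under 0.05. Without L1L2-FF replicate 2, 2 of the T and B cell markers were higher, and 1 muscle marker was lower without L1L2-FF replicate 3 or L1L2-AKO replicate 3. The part of any of these cells in the members' levels was not tested.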

How the data were processed

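RNA was sequenced from floated adipocytes of male postnatal day 7 mice in 6 libraries, 3 per genotype, each from 4 pooled mice. The authors aligned paired reads of a BGISEQ-500 to mm10 with HISAT2 (2.1.0) and used StringTie (1.3.5), versions as in the submitters' processing notes, and deposited raw counts per gene symbol without normalization. The annotation, counting program and strand setting are not given in the sources used here, so reads of overlapping genes may be assigned to either. DESeq2 1.42.0, limma 3.58.1 and edgeR 4.0.16 (R 4.3.3) gave the tests. The table held 37384 symbols and 0 rows naming no gene. edgeR's filterByExpr (minimum count 10, minimum total 15) kept 15674 genes and left out 21710. After TMM normalization the quasi-likelihood test was applied, two-sided and unpaired, with Benjamini-Hochberg adjustment over all genes tested. The 95% intervals use the standard error, which is the log2 fold change over the square root of F. Total counts of 30548473 to 32107917 gave at least 627 counts per member and library, so replicate spread and not counting error set the precision, and p-values measure the spread between pools. Replicates of a genotype differed beyond sampling noise. Exon lengths and positions came from GENCODE M21 and promoter windows from RefSeq (GRCm38.p6).

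The members and the 18 other gene lists were chosen with earlier results of these data known. The rule for named genes took all members, *Lats1* and *Lats2*, the genes of each other list past the threshold and its 2 most abundant per kb, and the 5 with the most similar pattern. *Kdr*, *Fli1*, *Ets1*, *Angpt1*, *Angpt2*, *Gpihbp1* and *Prox1* were added for their role after their values were seen. *Podxl* and *S1pr1* were added for their likeness to *Egfl7*, also after their values were seen. Lists of other lineages are given mainly as counts. The tests were checked on simulated counts. Alternatives were other normalizations, tests and count filters, a 2-fold threshold, replicate number as a block and each library left out.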

Additional observations from a re-analysis of the deposited data

How the results depend on the processing

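With 3 pools per genotype, the smallest two-sided p of an exact permutation test is 0.1, and the model-based tests rest on the spread between few pools. The direction of 8 members stayed negative under all 17 alternatives run. That of *Egfl7* turned to 0.19 without L1L2-AKO replicate 3, in a range of -0.28 to 0.19 over the fits without a library. The number of members past the threshold was 0 and became 1 (*Erg*) with DESeq2 and 4 (*Tek*, *Emcn*, *Cldn5* and *Erg*, all lower) with the replicate number as a block. In the fit with the block, 2514 of 15674 genes passed, 1106 of them lower. The replicate numbers are not known to pair pools: deviations of same-numbered libraries correlated with r = 0.19, 0.26 and -0.05 over genes, and not every library correlated best with its own number. With each library left out in turn, 0 to 1 members were lower. Over all genes, 1455 were higher and 1125 lower, which changed to 290.0 and 103 with the 2-fold threshold and ranged over the fits without a library from 777 to 1552 higher and from 467 to 1293 lower. Of the 25 other pan-endothelial genes, 2 were higher and 2 lower. Lower genes became 0 with library size alone, 1 without a filter on low counts and 0 with the 2-fold threshold, which also left 0 higher. The fits without a library gave 0 to 2 higher and 0 to 3 lower. The causes were not tested. Leaving the 4 called genes out of the endothelial sum changed 8 members without overlap to 6.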
